A study of Mus musculus with 4 samples.

Results

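The accessible regions described here are those whose nearest protein-coding gene is Myc, in a study of open chromatin in mouse natural killer (NK) cells grown at different doses of the cytokine interleukin-15 (IL-15). A region was assigned to the gene whose span was closest, and 74 of the 91266 deposited regions went to Myc. ATAC-seq, in which a transposase cuts and tags open DNA, was performed on 4 cultures of wild-type C57BL/6 splenic NK cells. Cells were kept for 72 h in a high dose (HD, 2 samples) or a low dose (LD, 2 samples) of IL-15, with about 75000 cells taken per replicate. The concentrations are not given in the labels, every culture received the cytokine, and no group without it is among the samples. The deposited tables hold positions only. They give 1 list of regions for all samples together and the authors' own lists of regions called up or down between the doses. The tables hold no value per sample, so that sequencing depth is unknown, the spread between replicates cannot be measured and no test between the doses was possible. Which dose was the reference is not stated, and the lists are called up and down as deposited. Because 1 list was deposited for all samples, it cannot be said in which dose or replicate a region was open. As a check of the labelled cell type, a region lay within 1000 bp of 8 of 8 NK cell marker genes, 4 of 5 T cell markers, 2 of 4 B cell markers and 2 of 4 myeloid markers. Presence in the list is not a level, and it does not separate NK cells from other lymphocytes here.

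Myc encodes a transcription factor that pairs with MAX and drives genes of cell growth, ribosome production and metabolism. In lymphocytes it is induced by cytokines such as IL-2 and IL-15 and by antigen receptors, and its messenger RNA and protein are short-lived, so that supply has to be continuous. The gene sits alone in a stretch poor in protein-coding genes, and much of its control is known to come from distant enhancers in that stretch that differ between cell types. Its transcription runs toward higher coordinates, and in the same direction lies Pvt1, a long non-coding RNA gene whose promoter and body hold elements that act on Myc. Known enhancers of blood cells lie still farther out on that side, toward the gasdermin C genes.

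In the mm10 build (GRCm38), Myc spans chromosome 15, 61985341 to 61990361, a length of 5021 bp. The next protein-coding gene at lower coordinates was A1bg, which encodes a plasma glycoprotein, 1064.1 kb away. On the other side it was Gsdmc, which encodes a member of the pore-forming gasdermin family, 1785.6 kb away. Splitting each interval at its middle gave Myc a territory of 1.43 Mb, of which 532 kb lay at lower and 892.8 kb at higher coordinates. The 74 regions covered 33.4 kb, or 2.34% of the territory, against 1.73% over all chromosomes. They occurred at 5.18 per 100 kb. The density was 3.67 per 100 kb over chromosome 15 and 3.44 over all chromosomes, each measured from the first to the last region. By number of assigned regions Myc ranked 10 among the 16388 genes that had any, whose median was 3 regions. By number of regions more than 100 kb away, 56 for Myc, it ranked 4. These densities are given without a test.

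**Figure D1:**
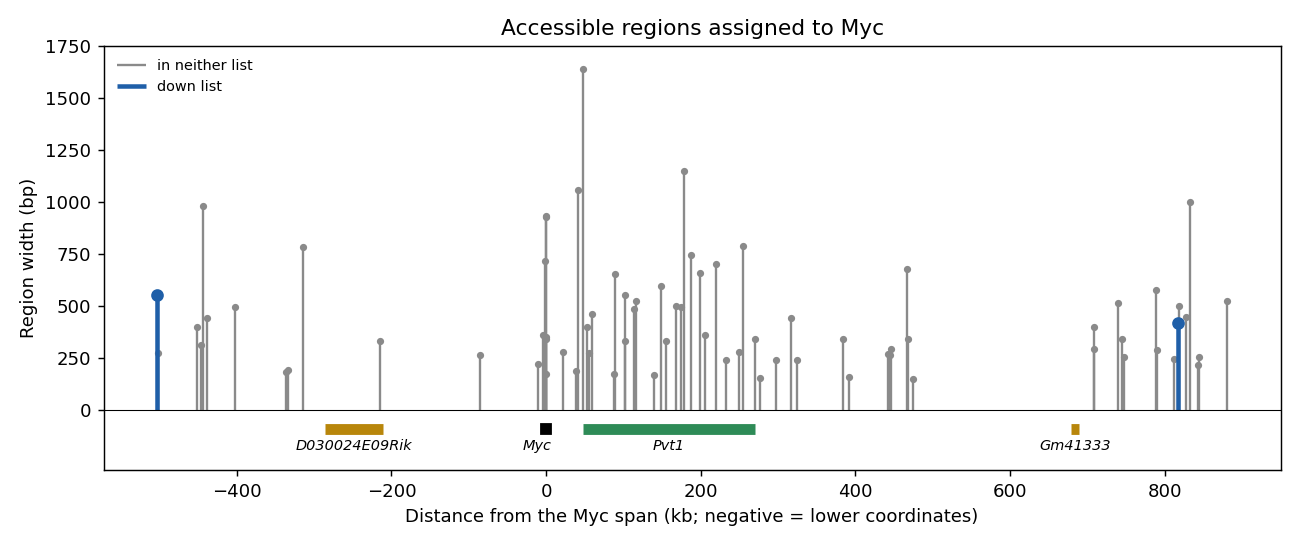
Width in bp (vertical axis) of each of the 74 regions assigned to Myc against its distance in kb from the Myc span (horizontal axis, negative toward lower coordinates). Bars below the axis mark Myc and 3 non-coding genes, and blue marks the 2 regions of the down list, which lie at -503 and 817 kb, far from the dense group over Pvt1.

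The regions were unevenly divided between the sides of the gene. At higher coordinates lay 54 regions (73%, 95% Wilson interval 61.9 to 81.8%), at lower coordinates 16, and 4 overlapped the gene. The 74 include the 4 over the gene, which lie on neither side. The territory is also longer on the high side, with 892.8 of its 1429.9 kb there, a share that lies just inside that interval. Per 100 kb the high side held 6.05 regions and the low side 3.01. Counted outward, the sides differed by class of distance. Within 10 kb, the 4 regions over the gene left out, there were 0 regions on the high side and 3 on the low side. From 10 to 100 kb there were 9 regions on the high side and 2 on the low side, and from 100 to 250 kb there were 16 and 1. From 250 to 500 kb the counts were 14 and 8, or 5.60 and 3.20 per 100 kb. Beyond 500 kb there were 15 and 2, but the low side has only 32 kb of territory there, and per 100 kb the order was the opposite, with 3.82 on the high side and 6.24 on the low side. The median distance of all 74 regions from the gene was 273.1 kb, with 7 regions within 10 kb, 11 from 10 to 100 kb, 17 from 100 to 250 kb, 22 from 250 to 500 kb and 17 beyond 500 kb.

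**Figure D2:**
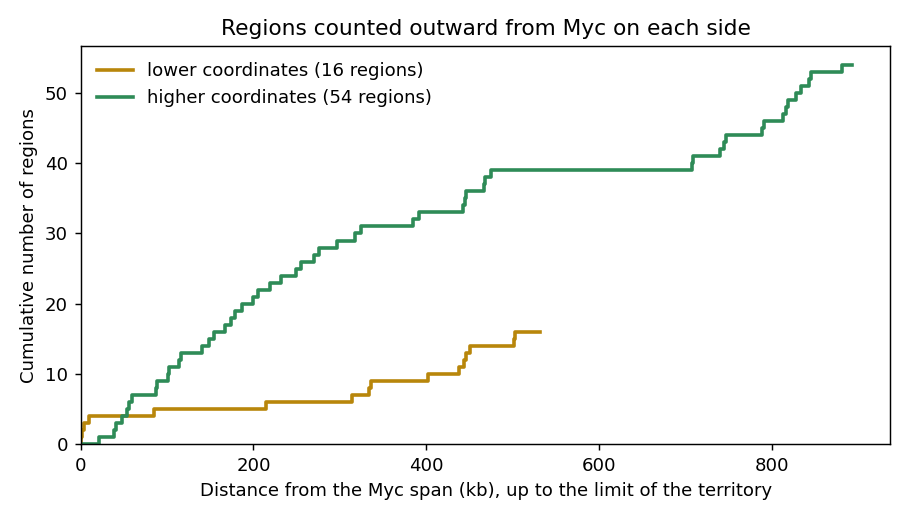
Cumulative number of regions (vertical axis) with distance from Myc in kb (horizontal axis), counted outward on each side up to the limit of the territory. The line for higher coordinates climbs to 39 regions by 475 kb, stays level over a gap of 233.2 kb and ends at 54, while the line for lower coordinates ends at 16.

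At the gene itself, 7 regions stood within 6.76 kb, from 61981510 to 61988269, and covered 56.1% of that stretch. The region over the low-coordinate end of Myc, where transcription of the gene begins, ran from 61984836 to 61985765 and was 930 bp wide. The other 3 regions that overlapped the gene were 174 bp wide at 61986367 to 61986540, 927 bp at 61986724 to 61987650 and 351 bp at 61987919 to 61988269. Together the 4 covered 37.4% of the bases of the gene and left its last 2092 bp without a region. Upstream, a region of 339 bp at 61984284 to 61984622 lay 719 bp from the gene, followed at 1695 and 3474 bp by regions of 716 and 358 bp. Of these 7 regions, 0 were in the up or the down list. With 5.61% of all regions in either list, a count of 0 among 7 is not a result about the gene. Downstream of the gene the nearest region was 21388 bp away.

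Between Myc and Pvt1 lay 3 regions. The last of them, of 1059 bp, was 41452 bp from Myc. The widest of the 74 regions measured 1640 bp, from 62037684 to 62039323, and overlapped the low-coordinate end of Pvt1, where Pvt1 begins. The span of Pvt1, of 222.2 kb from 62037986 to 62260215, was overlapped by 23 regions, at 10.3 per 100 kb. They made up 42.6% of the regions on the high side, whereas the gene takes up 24.9% of that side of the territory. Their widths ranged from 167 to 1640 bp with a median of 494 bp (95% interval from order statistics 332 to 652 bp), against 354.5 bp (329 to 449 bp) for all 74 regions. The 74 include these 23, the 2 intervals overlap, and no test was made of the widths. Of the 3 Myc regions of 1000 bp or more, 2 overlapped Pvt1 and the other was the 1059 bp region just before it. The largest group of regions separated by no more than 12.5 kb lay inside Pvt1, with 9 regions over 65.3 kb from 62130552 to 62195854. The up and down lists each held 0 of the 23 regions, which allows a share of up to 13.0% in each. As 5.61% of all regions are in either list, a count of 0 among so few regions is not a result about Pvt1.

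Past Pvt1, 13 regions followed up to 474819 bp from Myc, where the narrowest of the 74, of 150 bp, stood at 62465180 to 62465329. The widest gap, of 233.2 kb, came next and held no region, although the long non-coding RNA gene Gm41333 lies in it. A further 15 regions then stretched over 173.1 kb, from 62698489 to 62871628, at 8.66 per 100 kb of that stretch. That stretch is bounded by the regions themselves and leaves out the gap, which raises the density. Over all of the territory beyond 500 kb on this side it was 3.82 per 100 kb. Their median width was 398 bp. The nearest member of this distant group was 708128 bp from Myc, and the group included the farthest region on the high side, at 880743 bp. The closest pair of all, 138 bp apart, lay nearer to Myc, at 62435696 to 62435958 and 62436097 to 62436388.

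On the low side regions were few between 10 and 250 kb from the gene. The density was 2.22 per 100 kb from 10 to 100 kb and 0.667 from 100 to 250 kb. After the regions next to the gene came 1 at 10026 bp, 1 at 85171 bp and 1 at 214239 bp, with gaps of 74.9 kb, 128.8 kb and 99.6 kb beside them. The region at 214239 bp, of 330 bp, was the only one in the long non-coding RNA gene D030024E09Rik, whose span is 75.2 kb. The remaining 10 lay between 314189 and 503019 bp, among them a group of 4 over 13.1 kb that held the widest region of this side, 980 bp at 61540497 to 61541476. The farthest region on the low side, at 503019 bp, was in the down list.

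The spacing of the Myc regions was set beside that of the series as a whole. The median gap between neighbours was 6.28 kb (4.71 to 11.3 kb, 73 gaps), against 6.75 kb on chromosome 15 and 6.91 kb over all chromosomes. Gaps under 1 kb were 13.7% of those at Myc and 14% of all gaps. Widths were compared with those in other gene deserts. Regions more than 100 kb from any protein-coding gene, Myc left out, were 354 bp wide at the median, against 400 bp for the full list (397 to 402 bp). The 56 Myc regions over 100 kb from the gene were 351 bp wide at the median. The share of at least 1000 bp was 1.79% among those 56 (1 region), 3.46% in the other deserts, 4.05% of all 74 Myc regions and 9.21% of the full list. No test was made of these differences, since regions of 1 locus share their libraries and are not replicates.

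**Figure D3:**
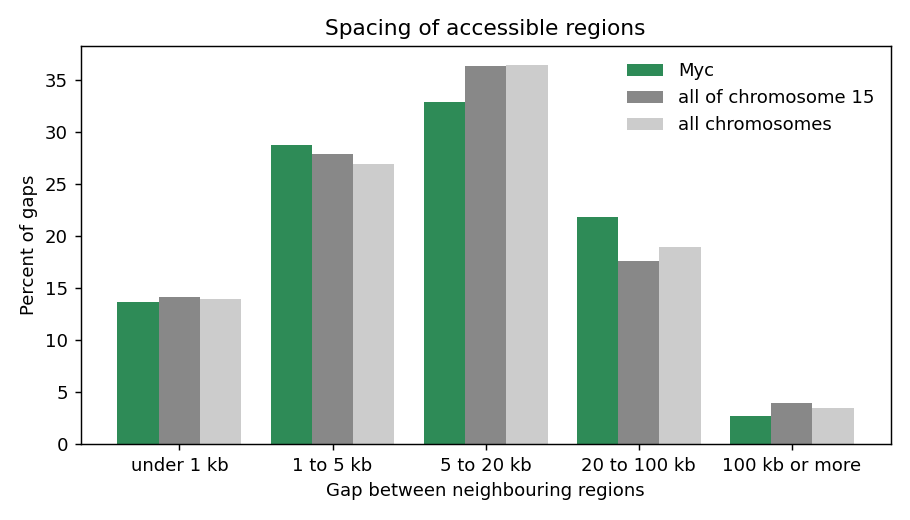
Percent of gaps between neighbouring regions (vertical axis) in 5 classes of gap length (horizontal axis) for the 73 gaps among Myc regions, for chromosome 15 and for all chromosomes. The 3 sets lie within a few percentage points of each other in each class, with 32.9% of Myc gaps from 5 to 20 kb against 36.5% of all gaps.

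The authors' deposited down list held 2 of the 74 regions, or 2.70% (95% Wilson interval 0.744 to 9.33%), where 1.40% of all 91266 regions were listed as down. The up list held 0 of the 74, which allows a share of up to 4.05% (3 regions of 74) and has a Wilson interval of 0 to 4.93%, where 4.21% of all regions were up. The 2 lists together held 2 of the 74. Both Wilson intervals include the share of all regions. For the up list the bounds differ on this, since the limit from a count of 0 lies just below that share and the Wilson limit above it. On chromosome 15, Myc left out, 3.48% of 3621 regions were up and 1.93% were down. Both bounds for the up list include that 3.48%. Intervals and limits cover counting error only, and no test was made of either share. Weighted to the widths of the 74 regions, the shares over all other regions were 4.90% up and 1.41% down, which would correspond to 3.63 up and 1.04 down regions. Of regions over 100 kb from any protein-coding gene, Myc left out, 5.69% were up and 2.68% were down. At Myc the corresponding 56 regions held 0 up and 2 down (3.57%, Wilson interval 0.985 to 12.1%). For the up list the limit from a count of 0 was 5.36% and the Wilson limit 6.42%, on either side of 5.69%.

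The first of the 2 down regions, of 553 bp at chromosome 15, 61481770 to 61482322, lay 503 kb from Myc on the low side and was also the member nearest to the limit of the territory there. It was 560.5 kb from A1bg. A region of 274 bp that was in neither list lay 805 bp from it on the side toward Myc, and on the side away from Myc the nearest region, also unlisted, was 32.7 kb off. The second down region, of 420 bp at 62807390 to 62807809, lay 817 kb from Myc on the high side, in a group of 7 regions over 32.7 kb. Its neighbours, at 4300 and 1389 bp, were 245 and 502 bp wide and in neither list. Each down region therefore stood singly among unlisted neighbours. Their widths fell within the middle range of the down list, whose quartiles were 392 and 717 bp. Neither overlapped an annotated non-coding gene. Within 500 kb of Myc, 0 of 57 regions were in either list, with a Wilson limit of 6.31% that includes the 5.61% of all regions. The limit from a count of 0, which is 5.36% for 56 regions and lower for 57, lies below 5.61%. The 2 bounds thus differ here too. This distance limit excludes the first down region by 3019 bp.

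Where the territory ends decides which listed regions are counted. Just inside the low limit stood the first down region, and just outside it an unlisted region of 645 bp, 536.3 kb from Myc and 527.1 kb from A1bg. On the high side the last member, of 525 bp, was 880.7 kb from Myc and 904.3 kb from Gsdmc, and the next region, of 966 bp, was 894.6 kb from Myc and 890.1 kb from Gsdmc. Over the whole interval of 2.85 Mb between A1bg and Gsdmc there were 111 regions, of which 12 were nearer to A1bg and 25 nearer to Gsdmc. The density was 2.26 per 100 kb in the part nearer to A1bg and 2.80 in the part nearer to Gsdmc. The interval held 1 up region (0.901%) and 3 down regions (2.70%), against 4.21% and 1.40% of all regions. Its up region, of 1142 bp at 61407912 to 61409053, was 576.3 kb from Myc and 72.7 kb from the first down region, with a wider span than either of the down regions of Myc. The third down region, of 428 bp at 63661632 to 63662059, was 1.67 Mb from Myc and 113.9 kb from Gsdmc. It belonged to a group of 21 regions from 63576365 to 63771881, between 1.59 and 1.78 Mb from Myc and separated from the regions before it by 452.8 kb without any. That group lies in the part of the interval where distant enhancers of Myc in blood cells are known, and the nearest-gene rule does not assign it to Myc. Which gene any of these regions acts on was not measured.

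The calls at Myc were then set beside those at other genes with many regions. Of the 49 genes with 50 or more assigned regions, 12 had 0 up regions, Myc among them, and 12 had 0 down regions. At most 2 listed regions were found at 20 of the 49, with a median of 3 and a maximum of 15. Over the 49 genes together, 2.88% of 3087 regions were up and 3.50% were down, against 4.21% and 1.40% of all regions.

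**Figure D4:**
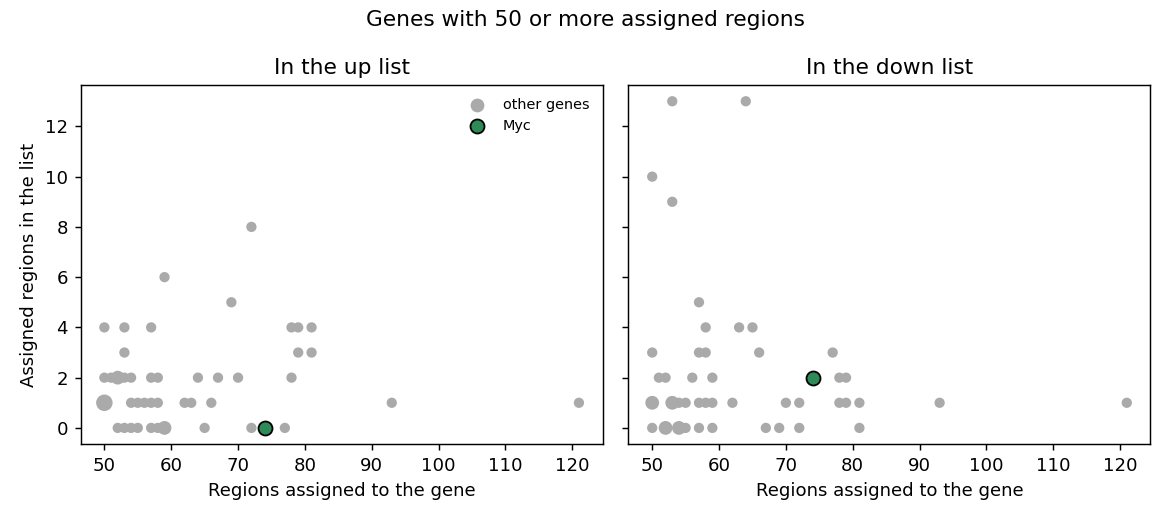
Number of assigned regions in the up list (left) and in the down list (right) against the number of regions assigned, for the 49 genes with 50 or more regions. Larger grey points stand for several genes at the same values. Myc, in green at 74 regions, has 0 up and 2 down regions and lies within the range of the other genes.

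The other genes of the MYC network were taken from a fixed list of 25: partners and antagonists that pair with MAX or MLX, cofactors, and regulators of MYC protein stability. Together they had 174 regions, of which 9 (5.17%) were up and 4 (2.30%) were down, against 4.21% and 1.40% of all regions. An up region was assigned to 9 of the 25 genes and a down region to 3, and 15 had neither. The 15 include Ruvbl2, which had no region assigned and so could not be listed. The share of all genes with a listed region was not counted, so these counts of genes have no background. A gene with more regions also has more chances to hold a listed one. Mycn, a paralogue of Myc, had 1 of 10 regions up, a region of 159 bp within the gene at chromosome 12, 12939039 to 12939197. This call is lost when regions under 200 bp are left out. Mycl, the other paralogue, had 4 regions, of which 0 were listed. Max, which encodes the obligate partner of MYC, had 23 regions with 1 up, 92.6 kb from the gene, and 1 down, 63.1 kb from it. Mxd1, Mxd3, Mxd4, Mxi1, Mnt and Mga, which encode competitors of MYC for MAX, had 9, 2, 3, 13, 6 and 4 regions, with 0 listed. As 5.61% of all regions are in either list, counts of 0 among so few regions, as also at Mycl, are not a result about these genes. In the MLX branch, which senses glucose, Mlxip had 1 of 8 regions down and Mlxipl 1 of 11 up, both within the genes.

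Of the 7 cofactors, 3 had a single up region each, while Zbtb17, Kat5 and Ruvbl1, with 3, 2 and 3 regions, and Ruvbl2 had none in either list. Those with an up region were Trrap (1 of 3) and Ep400 (1 of 5), subunits of histone acetyltransferase complexes, with the region inside the gene, and Wdr5 (1 of 7), whose region was 68 kb away. As 4.21% of all regions are up, single calls among so few regions are not a result about the cofactors. Among regulators of protein stability, Fbxw7, which encodes the substrate receptor of a ubiquitin ligase that marks MYC for degradation, had the most listed regions. It had 1 of 33 up, 33 kb from the gene, and 2 down, at 193 and 206.2 kb. Usp28, which encodes a deubiquitinase that counteracts FBXW7, had 1 of 3 regions up within the gene, and Huwe1, another ubiquitin ligase gene, had 1 of 8 up, 15.6 kb away. Pim1, a kinase gene induced by cytokines, had 11 regions and 0 in either list, too few regions for a result beside the 5.61% of all regions. Of the 10 genes with a listed region, 7 had up regions only, 1 (Mlxip) had a down region only, and 2 (Max and Fbxw7) had both. These counts were not tested.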

How the data were processed

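Of the 3 deposited tables, 1 lists accessible regions with their width and 2 list the regions the authors called up or down. Per the submitters' processing notes the build is mm10 and the tools include BWA, ArchR, MACS2 and HOMER 4.11.1, with no role given. How regions were called, whether samples were pooled, and the differential test and its threshold are not given in the sources used here. Starts in the full list were raised by 1, and listed regions were matched by identical position. Genes came from the RefSeq table of GRCm38.p6 (21900 protein-coding genes), which gives no strand, exons or introns. Ties in assignment went to the nearer gene end, and the assignment was tested on simulated data. Percentages carry 95% Wilson intervals and medians 95% intervals from order statistics, over regions (Python 3.11.15, pandas 2.3.3, scipy 1.17.1). The planned motif search was not run. The regions named are all listed ones, those at the gene, the widest, narrowest and farthest, the closest pair, the widest gap and those beside the limits; the Pvt1 regions, groups of neighbours and genes with 50 or more regions were added after the values were seen. Myc and the gene lists were chosen with earlier results of these data known.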

Additional observations from a re-analysis of the deposited data

How the results depend on the processing

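No paired analysis was possible because no table gives values for single samples. For the same reason no replicate was left out and no stricter threshold was set on the authors' calls. Of 57 recomputed values of 8 results, 49 stayed within the interval of the reported value or, for counts, within 1.5 times it, and 8 moved. Some of the 49 could not move. Any subset of 74 regions with 0 up also has 0 up. Every listed region matched the full list exactly, so matching by overlap returned the same calls. When genes of any biotype could take regions, Pvt1 and other non-coding genes took most of them: 9 regions were left to Myc, 0% of them down, 11.1% on the high side, at a median distance of 0.719 kb and a median spacing of 0.619 kb, and 6 in place of 11 network genes (Myc included) had a listed region. Within 500 kb of Myc, 0% of regions were down. Over the whole interval between A1bg and Gsdmc the median distance was 467.7 kb. The alternatives on the network were chosen after seeing the data. Depth is unknown, and with 74 regions a share of listed regions a few percent from the background could not be told from it.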
